A study of Mus musculus with 10 samples.

Results

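The choroid plexus transport set described here holds 10 genes for ion, water and copper transport, out of 56884 genes in the count table: Kcnj13, Kcne2, Aqp1, Clic6, Slc4a5, Slc4a2, Slc12a2, Slc31a1, Car12 and Atp4a. They were found by gene symbol, and all 10 had a row and passed the filter on low counts. Ttr, which encodes the thyroid hormone carrier transthyretin and is abundant in choroid plexus, served as the reference gene. The members were selected on the CPM values and void against DHT fold changes of these same mice, so their group differences are a description, without p-values. Bulk RNA-seq was measured in hippocampi of 10 female P301S (PS19) mice, with 1 mRNA library per mouse. All 10 carried the human Tau transgene with the P301S mutation under the mouse Prnp promoter, had intact ovaries and were perfused before dissection. At 6 months of age, 5 mice (replicates 1, 2, 3, 5 and 6) received a subcutaneous tube with a 10 mm fill of DHT, an androgen that aromatase cannot convert to estrogen, and 5 (replicates 4, 5, 9, 10 and 11) received a void tube. Hippocampi were collected after 12 weeks, at 9 to 9.5 months. The study asked what raised androgen does to the female tauopathy brain, and there was no group without the transgene.

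The choroid plexus is a folded epithelium in the brain ventricles that secretes cerebrospinal fluid. Its cells take up bicarbonate and chloride at the blood side, move sodium, potassium, chloride and bicarbonate across the apical membrane, and let water follow through aquaporin channels. It lies against the hippocampus in the lateral ventricle and is not part of it, and several of the same transporters also serve glia and neurons. Of the members, Kcnj13 (the potassium channel Kir7.1), Kcne2 (a potassium channel subunit) and Clic6 (a chloride intracellular channel family protein) concern channels. Aqp1 is the apical water channel. Slc4a5 (a sodium bicarbonate cotransporter) and Slc4a2 (the anion exchanger AE2) carry bicarbonate, Car12 is a membrane carbonic anhydrase, and Slc12a2 is the sodium-potassium-chloride cotransporter NKCC1. Slc31a1 is the copper importer CTR1, and Atp4a is the catalytic subunit of the gastric proton-potassium pump.

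Sequence upstream of the transcription start, from RefSeq (GRCm38.p6), was searched for 8 of the 10 genes. The 250 bases before 4 start sites are shown because these genes behaved differently across the mice: the first 3 rose and fell together, while Atp4a did not follow them. Capitals mark AGAACA, the core bound by 1 androgen receptor subunit, on either strand. Both windows that held this core are among the 4 shown. The upstream window of Kcne2 and that of Aqp1, which rose and fell with the first 3 genes, lacked it and are not shown.
Kcnj13, chr1:87394730-87394979, minus strand: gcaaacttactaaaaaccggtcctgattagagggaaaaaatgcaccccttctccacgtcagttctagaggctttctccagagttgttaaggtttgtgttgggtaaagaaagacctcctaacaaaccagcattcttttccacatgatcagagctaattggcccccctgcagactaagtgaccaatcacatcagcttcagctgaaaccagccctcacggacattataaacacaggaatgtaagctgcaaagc
Kcne2, downstream of its 2 starts, chr16:92295366-92295615, plus strand: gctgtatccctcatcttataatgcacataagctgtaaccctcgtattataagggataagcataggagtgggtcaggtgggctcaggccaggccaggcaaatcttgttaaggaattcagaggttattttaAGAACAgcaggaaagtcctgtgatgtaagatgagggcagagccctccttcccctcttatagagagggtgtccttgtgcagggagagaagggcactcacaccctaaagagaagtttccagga
Slc4a5, chr6:83237125-83237374, plus strand: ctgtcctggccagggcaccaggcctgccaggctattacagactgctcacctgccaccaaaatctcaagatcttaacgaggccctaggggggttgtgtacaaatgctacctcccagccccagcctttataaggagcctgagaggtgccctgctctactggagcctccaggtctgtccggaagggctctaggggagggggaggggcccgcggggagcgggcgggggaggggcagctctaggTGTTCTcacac
Atp4a, chr7:30711959-30712208, plus strand: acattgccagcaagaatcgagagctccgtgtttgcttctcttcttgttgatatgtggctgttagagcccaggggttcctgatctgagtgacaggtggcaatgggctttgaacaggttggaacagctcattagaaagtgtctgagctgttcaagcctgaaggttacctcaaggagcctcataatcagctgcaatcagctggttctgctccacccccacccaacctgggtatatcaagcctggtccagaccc

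The core began 121 bases before the start in Kcne2 and 11 bases before it, on the opposite strand, in Slc4a5. It was in 2 of the 10 windows of the 8 genes, beside 16.1% of 32851 RefSeq windows of the same length. The windows of 1 chromosome were left out of the search and of these counts. The full androgen response element, AGAACA and TGTTCT with any 3 bases between them, contains the core at each end and was in none of the 10 windows and in 0.00913% of all. The same held for AGGTCA repeated after 1 base, a sequence that nuclear receptors bind, which was in 0.0335% of all windows. The OTX core TAATCC (6.25% of all windows) and the forkhead core GTAAACA (3.17%) were not found in the 10 windows either. All motifs were searched on both strands.

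RNA of choroid plexus markers differed widely between the libraries, within the void group as well. The 12 epithelial markers of the choroid plexus (Ttr, Folr1, Kl, F5, Otx2, Enpp2, Sostdc1, Calml4, Prlr, Tmem72, Cldn2 and 1500015O10Rik) summed to 359 to 3234 CPM (read counts scaled to a common library size by TMM) in void-treated mice and to 3900 to 5775 in DHT-treated mice, and none of the 12 was at 0. All 12 were higher on average, as were 52.4% of all genes tested, and 6 passed the call limits given below, as did 2.17% of all genes. Void replicate 9 stood close to the DHT-treated mice, while void replicates 5 and 11 had little choroid plexus RNA. The fold change of each member is therefore also given without void replicate 9. Of the fits that each left out 1 mouse, this one gave the highest log2 fold change for every member but Atp4a. The lowest were 1.845 for Kcnj13, 1.78 for Kcne2, 1.79 for Aqp1, 1.89 for Clic6 and 1.96 for Slc4a5. They were 1.16 for Slc4a2, 0.57 for Slc12a2, 0.92 for Slc31a1 and 0.81 for Car12. Ependymal markers also moved, from 12.2 to 36.1 CPM in sum with void to 37.6 to 49.3 with DHT, with 6 of 6 positive and 1 called. The 4 microglial markers summed to 238 to 274.5 CPM with void and 290.7 to 423.6 with DHT. Hippocampal neuron markers overlapped (496 to 696 CPM with void and 495 to 652 with DHT), and none was at 0. Sums also overlapped for endothelial markers (124.5 to 171 and 137 to 152) and for those of stroma and meninges (70.3 to 110 and 63.7 to 121.5). Of the 5 markers of stroma and meninges, 3 were positive and 1, Igf2, was called higher (log2 fold change 1.68). Markers of the thalamus, which lies below the hippocampus, summed to 67.9 to 104 and 75.6 to 193.5 CPM. Total counts ranged from 27188854 to 47113661 per library. The part of these other cell types in the results was not tested, and in bulk tissue more choroid plexus cells and more RNA per cell cannot be told apart. The sample numbers in the titles of the void libraries (4 to 11) all precede those of the DHT libraries (18 to 23).

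The members fell into 3 groups by level and spread. In 5 of them, Kcnj13, Kcne2, Aqp1, Clic6 and Slc4a5, the mean was 4.33 to 4.87 times higher with DHT, and single void-treated mice differed by 11.1 to 39.7 times. In Slc4a2, Slc12a2, Slc31a1 and Car12 the mean was 1.62 to 2.54 times higher, and void-treated mice differed by 1.41 to 3.69 times. Atp4a was near the limit of detection and was 0.928 times as high with DHT.

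Among the channels, Kcnj13 (ENSMUSG00000079436) was at 2.04 CPM in void replicate 11, 2.11 in 5, 5.35 in 10, 14.5 in 4 and 38.4 in 9. With DHT it was at 39.0 in replicate 5, 48.6 in 2, 51.7 in 6, 61.7 in 3 and 75.1 in 1. The groups did not overlap, but the highest void-treated mouse and the lowest DHT-treated mouse differed by only 1.02 times. The log2 fold change of Kcnj13 was 2.14 (SE, standard error, 0.65), and without void replicate 9 it was 3.16 (SE 0.51).

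Kcne2 (ENSMUSG00000039672), whose product joins potassium channels of the apical membrane, was at 0.569, 1.31, 5.79, 10.4 and 22.3 CPM in void replicates 11, 5, 10, 4 and 9. It was at 26.6, 27.3, 33.4, 42.4 and 44.6 in DHT replicates 6, 5, 2, 3 and 1. The void-treated mice took the same order as for Kcnj13, and the groups were apart. Kcne2 had a log2 fold change of 2.11 (SE 0.65), and 2.91 (SE 0.59) without void replicate 9.

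Clic6 (ENSMUSG00000022949) was at 6.71, 8.28, 15.1, 35.2 and 74.4 CPM in void replicates 11, 5, 10, 4 and 9, and at 96.3, 113, 117, 119 and 182 in DHT replicates 5, 2, 3, 6 and 1. DHT replicate 1 stood above the other DHT-treated mice. Clic6 had a log2 fold change of 2.16 (SE 0.55), and 2.92 (SE 0.44) without void replicate 9.

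The water channel gene Aqp1 (ENSMUSG00000004655) was at 0.659, 0.703, 3.69, 8.65 and 25.4 CPM in void replicates 11, 5, 10, 4 and 9. In DHT replicates 3, 2, 6, 5 and 1 it was at 27.2, 27.8, 36.8, 37.6 and 40.5. Its void mean of 7.82 ± 10.3 (SD, n = 5) thus covered mice with almost no Aqp1 and 1 mouse near the DHT level, whereas the DHT mean was 34.0 ± 6.10 (SD, n = 5). The log2 fold change of Aqp1 was 2.11 (SE 0.72), and 3.25 (SE 0.58) without void replicate 9.

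Slc4a5 (ENSMUSG00000068323), the bicarbonate cotransporter, was at 0.809, 1.34, 6.94, 12.6 and 32.1 CPM in void replicates 11, 5, 10, 4 and 9. It was at 41.5, 44.5, 47.6, 57.7 and 70.7 in DHT replicates 2, 5, 3, 6 and 1. Slc4a5 had a log2 fold change of 2.28 (SE 0.69) with all mice, and of 3.23 (SE 0.59) without void replicate 9.

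**Figure D1:**
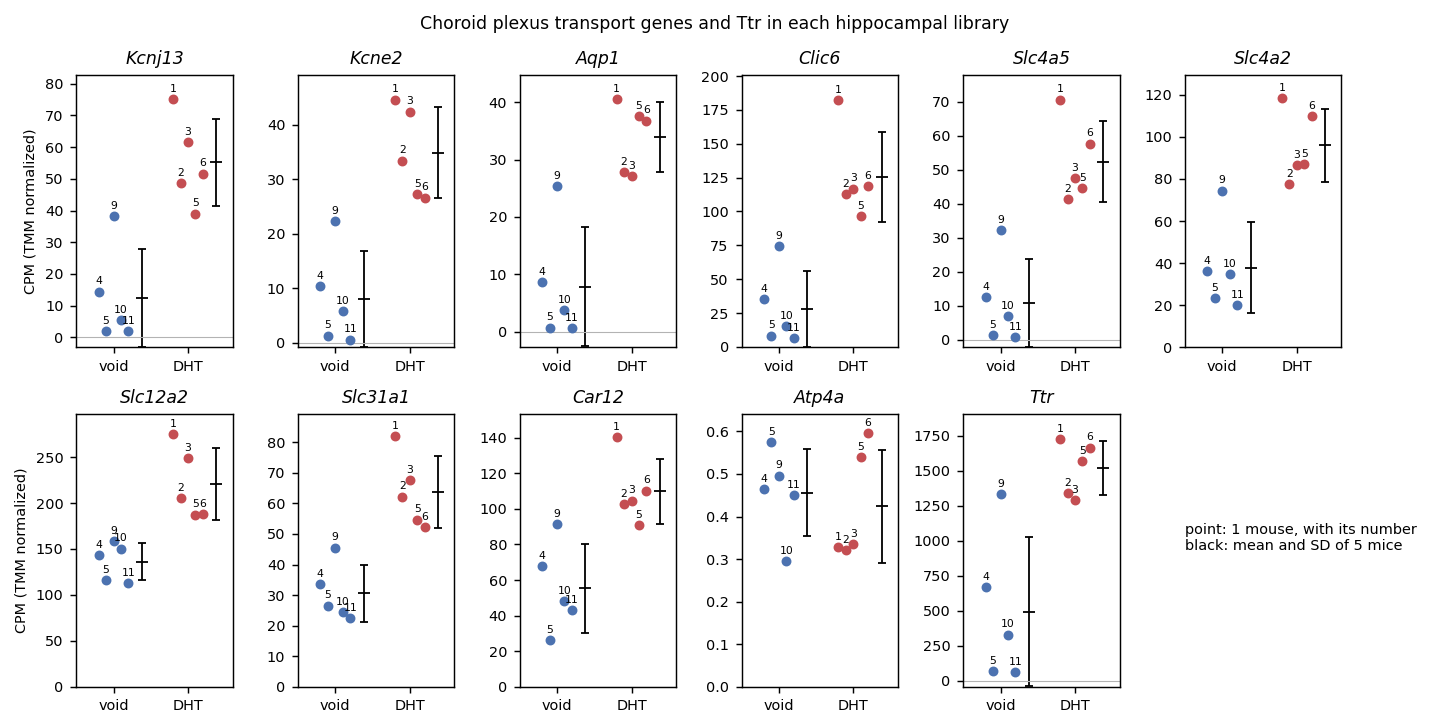
TMM-normalized CPM (y axis) of the 10 transport genes and Ttr in void-treated (blue) and DHT-treated (red) mice. Each point is 1 mouse with its replicate number, and black marks give the mean and SD of 5 mice. Void replicate 9 was the highest void-treated mouse for 9 of the 10 genes, and DHT replicate 1 the highest DHT-treated mouse for 9 of the 10.

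The remaining transporters had a base level in every mouse. Slc4a2 (ENSMUSG00000028962), which exchanges chloride for bicarbonate at the blood side, was at 20.2, 23.6, 34.8, 36.1 and 74.4 CPM in void replicates 11, 5, 10, 4 and 9, and at 77.6, 86.7, 86.9, 110 and 118 in DHT replicates 2, 3, 5, 6 and 1. The groups of Slc4a2 were apart, with a log2 fold change of 1.34 (SE 0.30) that was 1.74 (SE 0.19) without void replicate 9.

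Slc12a2 (ENSMUSG00000024597), the cotransporter that glia and neurons also use to load chloride, was at 113, 117, 143, 150 and 159 CPM in void replicates 11, 5, 4, 10 and 9. It was at 187.5, 188, 206, 249 and 275 in DHT replicates 5, 6, 2, 3 and 1. It had the narrowest spread of the set with void (15.1% of the mean), and its log2 fold change of 0.70 (SE 0.13), or 0.76 (SE 0.13) without void replicate 9, lay below 1.

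Slc31a1 (ENSMUSG00000066150), the copper importer, was at 22.5, 24.4, 26.6, 33.7 and 45.5 CPM in void replicates 11, 10, 5, 4 and 9, and at 52.2, 54.7, 62.2, 67.5 and 82.0 in DHT replicates 6, 5, 2, 3 and 1. DHT replicates 1, 2 and 3 were above DHT replicates 5 and 6 for Slc31a1, as they were for Slc12a2 and Kcne2. The log2 fold change of Slc31a1 was 1.06 (SE 0.19), and 1.25 (SE 0.15) without void replicate 9.

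Car12 (ENSMUSG00000032373), which interconverts carbon dioxide and bicarbonate at the cell surface, was at 26.1, 43.0, 48.2, 68.0 and 91.4 CPM in void replicates 5, 11, 10, 4 and 9. In DHT replicates 5, 2, 3, 6 and 1 it was at 91.0, 103, 105, 110 and 140. The groups overlapped by void replicate 9 and DHT replicate 5 only. Its log2 fold change was 0.99 (SE 0.26), and 1.24 (SE 0.23) without void replicate 9.

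Atp4a (ENSMUSG00000005553) was at 0.295 to 0.575 CPM in void-treated mice and at 0.321 to 0.596 in DHT-treated mice. Void replicate 10 was the lowest of the 10 mice and DHT replicate 6 the highest, and the groups overlapped throughout. The log2 fold change was -0.13 (SE 0.26), and -0.10 (SE 0.28) without void replicate 9. Atp4b, which encodes the subunit that the pump needs to leave the cell interior, had 0 counts in the 10 libraries together, which allows up to 0.00827 CPM over their 362893195 counts, for counting error only. Atp4a was thus detected at a trace level, and without the second subunit of the pump.

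Of the 10 members, 8 had higher CPM in each DHT-treated mouse than in any void-treated one, beside 5.39% of the 17622 genes tested, and 9 were higher on average. Their median log2 fold change was 1.72, and that of all genes tested 0.01. A call required both a log2 fold change beyond 1 and, in the edgeR quasi-likelihood test, a Benjamini-Hochberg adjusted p under 0.05. By this rule 3 members, Clic6, Slc4a2 and Slc31a1, were called higher, beside 2.17% of all genes, and Slc12a2 passed the adjusted p alone (5.22% of all genes were higher by that rule). No member had a log2 fold change below -1 (0.0227% of all genes were called lower). Because the members were selected on these same fold changes, nothing is read from how many were called. Without void replicate 9, 8 members were called (2.86% of all genes), all but Slc12a2 and Atp4a. No member was called without void replicate 10, void replicate 11 or DHT replicate 1, where 1.53%, 1.1% and 0.987% of all genes were called. With no filter beyond 1 count 6 members were called (1.34% of all genes), and with library size alone 4 (2.28%).

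**Figure D2:**
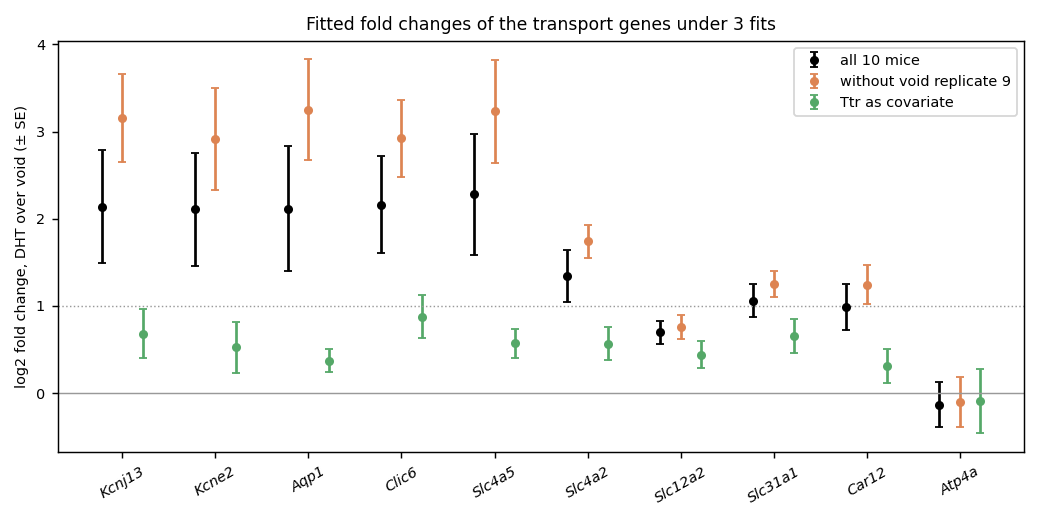
Fitted log2 fold changes (y axis, DHT over void) with standard errors for the 10 transport genes in all 10 mice (black), without void replicate 9 (orange) and with log2 CPM of Ttr as a covariate (green). The 5 genes on the left lie at 2.11 to 2.28 with all mice, at 2.91 to 3.25 without void replicate 9 and at 0.37 to 0.88 with Ttr as a covariate. The dotted line marks the limit of 1.

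Per kilobase of exon, the highest levels with void were those of Slc12a2, at 12.5 ± 1.88 CPM per kb (SD, n = 5), and Kcnj13, at 9.82 ± 12.1. Car12, Clic6, Slc31a1, Kcne2, Slc4a2, Aqp1 and Slc4a5 followed between 7.29 and 1.85, and Atp4a was last at 0.121 ± 0.0272. No neighbours in this order differed beyond the larger of their SDs, because the void-treated mice spread so widely. With DHT, Kcnj13 came first at 43.5 ± 10.8 CPM per kb (SD, n = 5) and Clic6 next at 32.05 ± 8.45, each above the next gene by more than the larger SD. Slc12a2 (20.2 ± 3.57) and Kcne2 (19.7 ± 4.73) did not differ beyond that spread. Slc31a1, Car12, Aqp1 and Slc4a2 followed in this order from 14.9 to 11.5, each within that spread of the next. Slc4a5 was lower, at 9.03 ± 2.05, and Atp4a was at 0.113 ± 0.0353. Ttr was at 415 ± 449 CPM per kb with void and 1281 ± 164 with DHT.

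Ttr was used to set the members against choroid plexus RNA mouse by mouse. Ttr was at 62.5, 65.1, 329, 670 and 1335 CPM in void replicates 11, 5, 10, 4 and 9, and at 1289, 1342, 1569, 1665 and 1728 in DHT replicates 3, 2, 5, 6 and 1. The order of the void-treated mice by Ttr was also their order by Kcnj13, Kcne2, Aqp1, Clic6, Slc4a5 and Slc4a2. For 8 members, void replicates 5 and 11 were the lowest of the 10 mice, which held for 5.3% of all genes tested, and the exceptions were Slc31a1 and Atp4a. Selection on the fold changes favours void-treated mice as the lowest, so the 2 shares are not on equal terms.

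The slope of log2 CPM on log2 CPM of Ttr over the 10 mice gives the steepness of this relation, where 1 means proportion. It was 1.04 for Kcnj13, 1.12 for Kcne2, 1.21 for Aqp1, 0.89 for Clic6 and 1.21 for Slc4a5. The slopes were 0.47 for Slc4a2, 0.38 for Car12, 0.30 for Slc31a1 and 0.19 for Slc12a2. Atp4a had a slope of -0.03. When single mice were left out of the 10, the first 5 slopes ranged from 0.86 to 1.28 and the next 4 from 0.17 to 0.51. These slopes span both groups, so they include the difference on which the members were selected. Over the 5 void-treated mice alone, the first 5 slopes lay between 0.71 (Clic6) and 1.12 (Aqp1). The next 4 lay between 0.11 (Slc12a2) and 0.34 (Slc4a2).

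A straight line through the 5 void-treated mice, of CPM on CPM of Ttr, met zero Ttr at 121 CPM for Slc12a2, 33.0 for Car12, 22.1 for Slc31a1 and 18.5 for Slc4a2. For Slc12a2 and Car12 this was above the lowest void-treated mouse, which had 113 and 26.1 CPM. For Kcnj13, Kcne2, Aqp1, Clic6 and Slc4a5 it met zero Ttr between -1.61 and 1.92 CPM. Beside their own lowest void-treated mouse these values were not all small. They were -244% of it for Aqp1, -130% for Slc4a5, -74.2% for Kcnj13, -19.9% for Kcne2 and 28.5% for Clic6. At the Ttr levels of the DHT-treated mice, all 5 mice lay above this line for Aqp1, Clic6, Slc4a5, Slc4a2, Slc12a2 and Slc31a1, and 4 of 5 for Kcnj13, Kcne2 and Car12. The median ratio of observed to line was highest for Clic6 (1.55), Kcne2 (1.51) and Slc4a5 (1.48), and 1.09 for Car12. The upper end of the line rests on void replicate 9 (1335 CPM of Ttr), since the other void-treated mice had at most 670 CPM of Ttr. Only DHT replicate 3, at 1289 CPM of Ttr, lay within the void range. For the other DHT-treated mice, at up to 1728 CPM, the line was extrapolated. The members were also selected on their fold changes, so these ratios are a description.

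**Figure D3:**
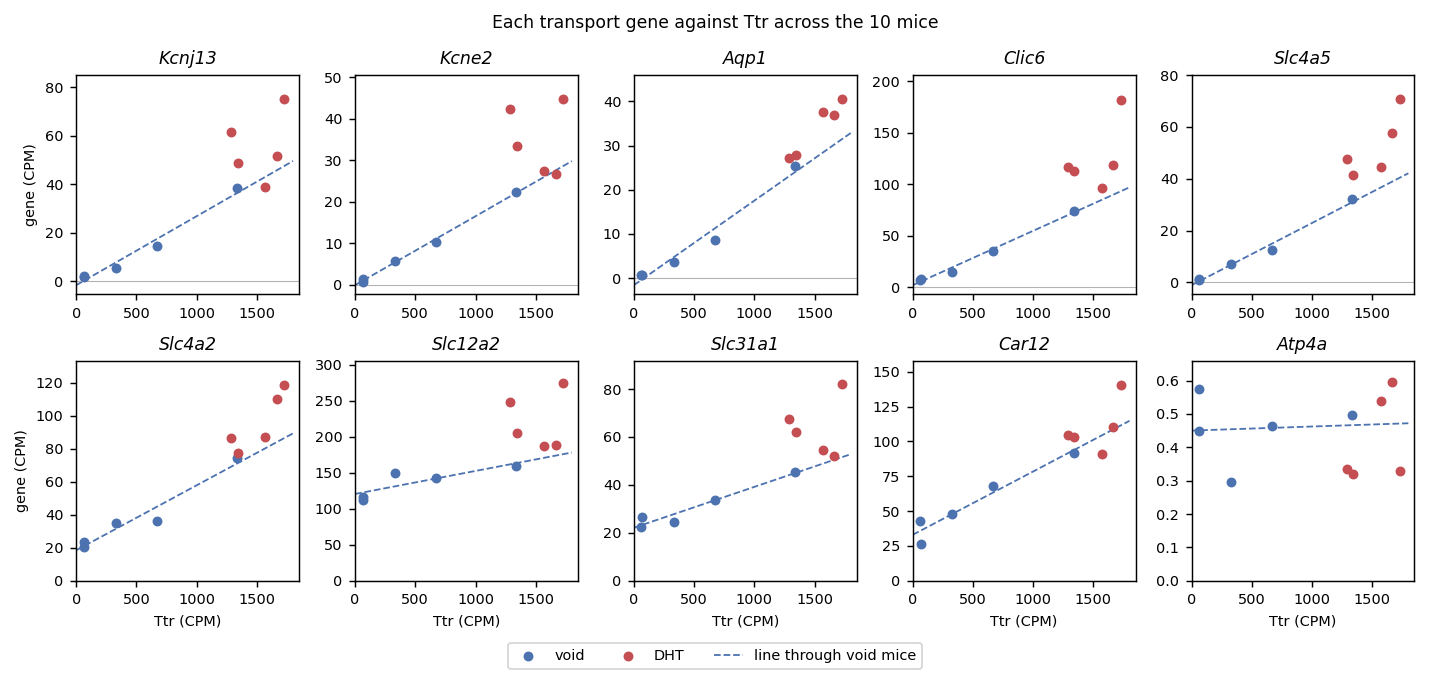
CPM of each transport gene (y axis) against CPM of Ttr (x axis) in void-treated (blue) and DHT-treated (red) mice, with the straight line through the 5 void-treated mice (dashed). The line meets zero Ttr between -1.61 and 1.92 CPM for the upper row. It does so between 18.5 and 121 CPM for Slc4a2, Slc12a2, Slc31a1 and Car12. Most red points lie above the line except for Atp4a.

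Counts per 1000 Ttr counts were compared in the same way. Slc4a5 was at 13.0 to 24.1 per 1000 Ttr counts with void and at 28.4 to 40.9 with DHT, without overlap. Aqp1 was at 10.6 to 19 with void and 20.7 to 23.9 with DHT, again without overlap, and void replicate 9 was the mouse nearest to the DHT-treated mice in both. By this measure 0.0397% of all genes tested were apart with DHT higher, and 31.9% were apart with DHT lower. Kcnj13 (26.3 ± 7.17 with void and 36.7 ± 9.25 with DHT), Kcne2 (15.8 ± 4.11 and 23.4 ± 6.88) and Clic6 (77.8 ± 36.9 and 82.6 ± 17.1) overlapped (SD, n = 5 each). The genes with a base level had lower means per Ttr count with DHT, Slc12a2 going from 878 ± 850 to 147.5 ± 32.4 (SD, n = 5 each), with overlap. Atp4a was apart in that direction, at 0.372 to 8.84 with void and 0.190 to 0.358 with DHT.

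With log2 CPM of Ttr as a covariate in the fit across all genes, the log2 fold changes of the 9 members other than Atp4a stayed positive, from 0.31 for Car12 to 0.88 (SE 0.25) for Clic6. Their standard errors ranged from 0.13 to 0.29. In that fit edgeR called 0 of 17622 genes in either direction, with 396 higher and 18 lower at an unadjusted p under 0.05 and the same fold limit. Ttr itself averaged 492 ± 533 CPM in void-treated and 1519 ± 195 in DHT-treated mice (SD, n = 5 each), so the covariate and the treatment divide the mice in much the same way.

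Within the groups, after each group mean was subtracted, log2 CPM of Kcnj13, Kcne2, Aqp1, Clic6 and Slc4a5 correlated with Pearson's r of 0.947 to 0.993 over the 10 libraries. Over the 36 pairs of the 9 members other than Atp4a, r was 0.615 to 0.993 with a median of 0.878, and pairs with Atp4a had r of -0.619 to 0.0346. The points share libraries, and the low values of void replicates 5 and 11 carry much of the range. The genes most like the mean z-score of the members by this within-group r were Krt18 (0.997), Abca4 (0.995), Krt8 (0.995), Col9a3 (0.989), 1500015O10Rik (0.989), Otx2 (0.988), Sostdc1 (0.985), Trpv4 (0.985), Enpp2 (0.984) and Steap1 (0.983). Krt8 and Krt18 encode keratins of simple epithelia, Otx2 a transcription factor of the choroid plexus, and Trpv4 a calcium-permeable cation channel. Ttr was at rank 44 of 17612, with r of 0.955.

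Kcne2 and Clic6 lie on chromosome 16 with Smim11, Fam243, Kcne1 and Rcan1 between them. Smim11 averaged 6.50 ± 0.715 CPM in void-treated and 7.17 ± 0.272 in DHT-treated mice (SD, n = 5 each), and its log2 fold change was 0.14 (edgeR adjusted p = 0.507). Rcan1 had a log2 fold change of 0.07 (edgeR adjusted p = 0.674). Fam243 and Kcne1 had at most 7 and 2 counts in any library. Kcnj13 shares 623 exonic bases with Gigyf2 on the opposite strand, and Slc4a2 shares 1141 with Fastk. Gigyf2 was at 103 ± 6.43 and 95.6 ± 3.69 CPM (SD, n = 5 each), and Fastk at 41.7 ± 4.26 and 42.6 ± 8.45 (SD, n = 5 each), with void and DHT. Their log2 fold changes were -0.10 and 0.03. How the counting used strand is not given in the sources used here.

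The partner genes of these transporters, which were not used to choose the members, were examined next. Their lists were drawn up with earlier results of these data known, so the share called is a description. Of 92 listed genes in 11 lists, 83 were tested, 4 were called higher (4.82% of those tested, beside 2.17% of all genes) and 0 lower. No partner was lower by the same fold limit at an unadjusted p under 0.05 or with DESeq2. Their median log2 fold change was 0.10, beside 0.01 for all genes. Without void replicate 9, 7 were called higher, and without DHT replicate 1, 2.

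Atp7a, the copper-transporting ATPase that exports copper from cells, was at 10.4 to 14.0 CPM with void and 20.2 to 38.4 with DHT, and rose by a log2 fold change of 1.15 (SE 0.16, edgeR adjusted p = 0.00670). Void replicate 9, at 12.4, lay inside the range of the other void-treated mice, which differs from its place for the copper importer Slc31a1. With Ttr as a covariate the log2 fold change of Atp7a was 0.98 (SE 0.23, adjusted p = 0.175), and without DHT replicate 1 it was 0.96. The other copper genes were all positive without passing the test, among them the storage protein gene Mt3 at 106 ± 16.9 and 121.5 ± 27.0 CPM (SD, n = 5 each).

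Car14, another membrane carbonic anhydrase, was at 6.26 to 16.3 CPM with void and 18.2 to 26.3 with DHT, a log2 fold change of 1.14 (SE 0.22, edgeR adjusted p = 0.0126). It moved with the members within groups (r = 0.928, 10 libraries), and with Ttr as a covariate its log2 fold change was 0.58 (SE 0.18). Car2, the abundant cytosolic enzyme, was at 183 ± 32.8 and 216 ± 4.82 CPM (SD, n = 5 each) and did not pass.

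Clic3, a relative of Clic6, was called at a low level, 0.170 ± 0.126 CPM in void-treated and 0.681 ± 0.144 in DHT-treated mice (SD, n = 5 each). Its log2 fold change was 1.98 (SE 0.37, edgeR adjusted p = 0.0122). It had at most 30 counts in a library. Clic1, of the same family, passed the adjusted p alone, with a log2 fold change of 0.78 (SE 0.13, adjusted p = 0.00980, edgeR). The sulfate transporter gene Slc13a4 had a log2 fold change of 1.42 (SE 0.31, adjusted p = 0.0214, edgeR), at 6.49 to 31.5 CPM with void and 37.3 to 58.3 with DHT. Its call was lost in 4 of 10 fits that each left out 1 mouse, those without void replicates 4, 5 or 11 or DHT replicate 1.

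By the adjusted p alone 12 partners passed upward (5.22% of all genes did) and 1 downward (0.261%), and 8 of the 12 had a log2 fold change below 1. Besides Clic1 these 8 were Stk39, the kinase that activates Slc12a2 (0.54, adjusted p = 0.00761), the potassium-chloride cotransporter genes Slc12a7 (0.69, adjusted p = 0.0188) and Slc12a4 (0.74, adjusted p = 0.0337), and the sodium pump genes Fxyd1 (0.92, adjusted p = 0.0122) and Atp1b3 (0.30, adjusted p = 0.0397), all from edgeR. Slco1c1, a thyroid hormone transporter, and Abcc4, an efflux pump, did so as well (0.54 and 0.58, adjusted p = 0.0262 and 0.0139, edgeR). Kcna2, a neuronal potassium channel gene, passed downward, at 414 ± 9.03 and 360 ± 17.3 CPM (SD, n = 5 each; log2 fold change -0.20, adjusted p = 0.0349, edgeR). Clic1, Stk39 and Fxyd1 passed in each of the 10 fits that left out 1 mouse. Abcc4 lost its pass without void replicate 11, Slc12a7 without void replicates 4 or 10 or DHT replicate 1, and Slco1c1 without void replicates 4, 5, 10 or 11 or DHT replicates 1 or 3. Slc12a4 passed in 2 of the 10 fits, those without void replicate 9 or DHT replicate 2. Atp1b3 passed in 1, without DHT replicate 6, and Kcna2 in 1, without DHT replicate 2. The bicarbonate and proton exchange list (11 tested) and the other aquaporins (3 tested) held no gene that passed, and their most abundant genes had log2 fold changes of 0.08 (SE 0.06) for Slc4a10 and 0.41 (SE 0.14) for the astrocyte channel gene Aqp4. Wnk1, Clcn3 and Slc12a5, the most abundant of the kinases, chloride channels and cation-chloride cotransporters, had log2 fold changes of 0.11, -0.04 and -0.10.

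**Figure D4:**
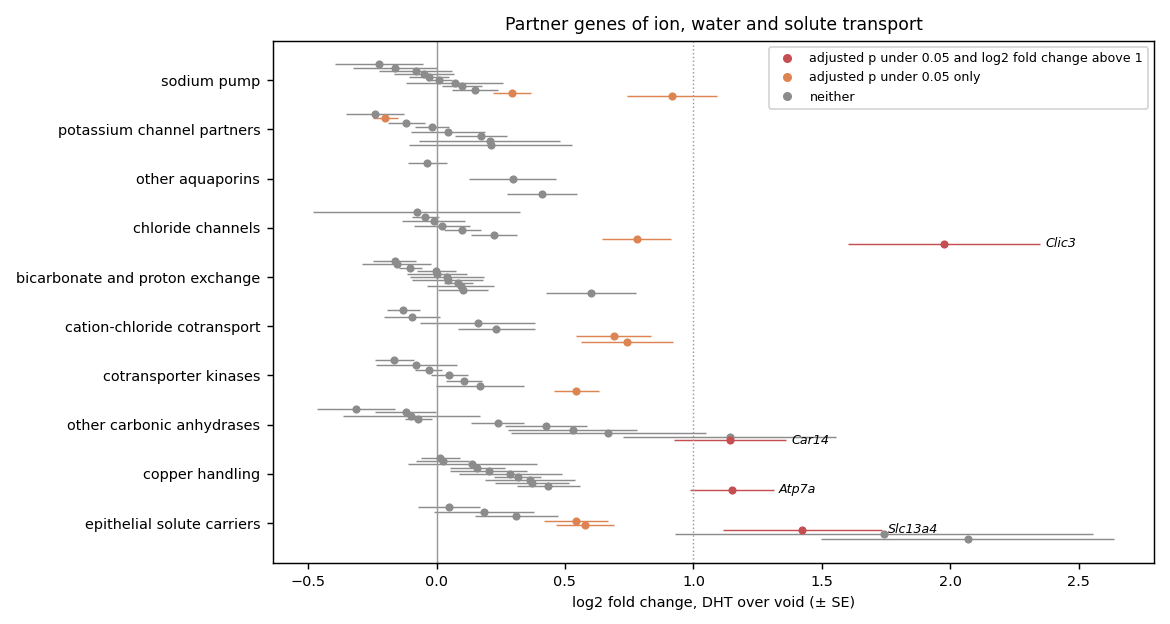
Log2 fold changes (x axis, DHT over void) with standard errors of the 83 tested partner genes, by list. Genes that passed both limits are red and named (Clic3, Car14, Atp7a and Slc13a4), those that passed the adjusted p alone are orange, and the rest are grey. The median over the 83 genes was 0.10.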

How the data were processed

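The authors trimmed and filtered reads with HTStream, aligned them with STAR 2.7.10b and deposited raw counts per gene for 10 libraries, without normalization. The methods name mm10 and the labels list mm39 and GRCm39, so coordinates are given only for RefSeq promoters (GRCm38.p6). The annotation release, strand setting and treatment of multimapping reads are not given in the sources used here. Symbols were found in GENCODE M21 for 51948 of 56884 rows, and exon lengths, overlaps and neighbours are from M21.

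Groups came from the treatment labels. The tests used edgeR 4.0.16 under R 4.3.3 (TMM, expression filter by group, quasi-likelihood test, Benjamini-Hochberg adjustment over 17622 genes). Each standard error (SE) was derived from the log2 fold change and its F statistic. DESeq2 1.42.0, which the study used, was an alternative. Log2 CPM used a prior count of 2. Fits were tested on simulated counts in which 200 genes were changed. Of the genes at an adjusted p under 0.05 there, 4.93% were unchanged ones with edgeR and 16.6% with DESeq2.

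The members and lists were chosen with earlier results of these data known. Partner genes are named where they passed a limit or were the most abundant of their list. The value of 1 such gene is not reported here. The genes named for likeness are the 10 with the highest within-group correlation. The motifs, the neighbours of Kcne2, the line through the void-treated mice and the difference of mean log2 CPM were chosen after the values were seen. Library totals set the counting error, and p-values set the difference between the groups against the spread between mice within them.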

Additional observations from a re-analysis of the deposited data

Results flagged for a closer look

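In 3 of 64 sets of 5 mice, 1 mouse lay far from the rest, with more than 0.71 of the whole range between it and its neighbour. Chance alone yields about 3.2 such sets. DHT replicate 1 was highest for Clic6 (ratio 0.739) and for the summed choroid plexus epithelium markers (0.777), which share their source and are not independent. Void replicate 9 was highest for Aqp1 per 1000 Ttr counts (0.722).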

How the results depend on the processing

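No paired analysis was possible because 5 was the single replicate number found in both arms. With 1 mouse left out, the number of genes called higher (382 with all mice) ranged from 175 to 513 and of genes called lower (4) from 0 to 7. Partner genes called higher (4) ranged from 2 to 7, and the median log2 fold change of the members (1.72) from 1.47 to 2.33. Without a limit on the fold change, 920 genes were higher and 46 lower, with 12 partners higher and 1 lower. With Ttr as a covariate, 0 genes were higher, 0 were lower and 0 partners were higher, and the median of the members was 0.55. Genes called lower numbered 7 with DESeq2, 8 with no filter beyond 1 count and 2 with at least 10 counts in every library, which left Atp4a out. The cause was not tested. No fitted log2 fold change of a member changed sign. The log2 ratio of Clic6 per Ttr count (0.09) ranged from -0.05 to 0.34 and was below 0 without void replicates 4, 9 or 10 or DHT replicate 1. The slope of Atp4a on Ttr (-0.03) was 0.02 without void replicate 5. Of 405 single values compared, 382 moved by less than the spread between mice and 23 by more. The numbers of genes and partners called and the median of the members are not among the 405. Of those 23, 18 were members with Ttr as a covariate or against the void line, the latter added after the data were seen. The others were slopes on Ttr, of Kcne2 and Car12 without void replicate 5 or 11 and of Slc4a5 without void replicate 5. The difference of mean log2 CPM, also added then, gave 2.72 to 3.34 for the 5 steepest members. Depth limits Atp4a, Clic3 and Atp4b.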

Other observations

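The ratio to Ttr was also compared for other markers of the choroid plexus epithelium. Of 11 such markers, 7 were higher per Ttr count with DHT. The log2 ratio of the group means ranged from -0.77 for Enpp2 to 1.23 for Tmem72, with a median of 0.16. For the members Aqp1 and Slc4a5 this ratio was 0.79 and 0.82. Enpp2 is also expressed outside the choroid plexus. The lowest void values were 236 CPM for Enpp2, 23.8 for Kl (log2 ratio -0.62) and 62.5 for Ttr. The part of RNA from other cells in these ratios was not tested. The range and median are thus not a measure of variation among genes of the same cells. The genes whose count per Ttr count was apart with DHT higher numbered 7 of 17622, and were Aqp1, Slc4a5, Tmem72, Folr1, Mfrp, Tmprss11a and Gm1110. They were named after their values were seen. Mfrp averaged 10.7 CPM in void-treated and 53.4 in DHT-treated mice. None of these ratios was tested, and 1 mouse, void replicate 9, sets the upper end of the void range for Aqp1 and Slc4a5.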
